A study of Homo sapiens with 4 samples.

Results

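The GET pathway is the route by which cells place tail-anchored proteins, which carry their membrane segment at the C-terminus, into the endoplasmic reticulum. It was examined here as 7 genes (GET4, GET1, GET3, CAMLG, BAG6, UBL4A and SGTA) of 20037 protein-coding genes, in a chromatin immunoprecipitation and sequencing (ChIP-seq) study of the transcription factor USF1. The set was selected on the fold over input at GET4, which was the highest of any gene-end peak present in both peak lists when each peak is ranked by the lower of its 2 folds, so the values at GET4 are a description and were not tested. The cells were Huh7, a line from a human hepatocellular carcinoma, made to overexpress USF1 according to the series' design text. An antibody against the FLAG tag pulled down the chromatin, so the peaks describe the overexpressed factor, and libraries from an IgG precipitation or from cells without overexpression were not used here. There were 2 libraries of immunoprecipitated DNA (IP 1 and IP 2) and 2 of input chromatin (input 1 and input 2), all from the same cell line. Reads kept after removal of duplicates numbered between 43562726 and 47165647 per library. The authors called peaks in IP 1 against input 1 (list 1, 14300 peaks) and in IP 2 against input 2 (list 2, 27325 peaks). The labels do not say whether the numbered libraries came from separate cultures, so the spread between lists is given as both values.

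SGTA is a co-chaperone that takes up tail-anchored proteins soon after they leave the ribosome. BAG6, GET4 and UBL4A form the complex that passes the cargo on, with GET4 as the part that docks the targeting ATPase GET3. GET3 carries the cargo to the membrane, where GET1 and CAMLG form its receptor. USF1 belongs to the bHLH-ZIP factors, which recognise E-boxes, short DNA sequences of the form CANNTG, and USF1 is known to prefer the palindrome CACGTG.

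The RefSeq table of promoter windows (GRCh38.p14, 250 bases before to 50 bases after a transcript start) held windows for 6 of the 7 genes, and GET4 was not among them. The windows of GET3, SGTA, GET1, CAMLG and UBL4A are shown because they range from a peak in both lists to none. That of BAX, a tail-anchored protein of the mitochondrial outer membrane that promotes apoptosis, is shown because its peak had the highest fold among the listed genes for tail-anchored proteins. Each is written 5′ to 3′ on the gene's own strand, with every CANNTG in capitals. Where a gene had several windows, the one with most CACGTG was printed, or the first by coordinate where these were equal. By this rule the GET3 window is that of its downstream start (chr19:12737247-12737546, plus strand). The others are SGTA (chr19:2783224-2783523, minus strand), GET1 (chr21:39380076-39380375, plus strand), CAMLG (chr5:134738298-134738597, plus strand), UBL4A (chrX:154486566-154486865, minus strand) and BAX (chr19:48954625-48954924, plus strand).
GET3: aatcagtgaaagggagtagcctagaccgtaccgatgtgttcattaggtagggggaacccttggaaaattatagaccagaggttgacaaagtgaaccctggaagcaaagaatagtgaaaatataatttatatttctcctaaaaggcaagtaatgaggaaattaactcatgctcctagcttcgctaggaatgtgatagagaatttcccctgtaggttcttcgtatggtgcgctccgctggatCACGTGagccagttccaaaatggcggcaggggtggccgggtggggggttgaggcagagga
SGTA: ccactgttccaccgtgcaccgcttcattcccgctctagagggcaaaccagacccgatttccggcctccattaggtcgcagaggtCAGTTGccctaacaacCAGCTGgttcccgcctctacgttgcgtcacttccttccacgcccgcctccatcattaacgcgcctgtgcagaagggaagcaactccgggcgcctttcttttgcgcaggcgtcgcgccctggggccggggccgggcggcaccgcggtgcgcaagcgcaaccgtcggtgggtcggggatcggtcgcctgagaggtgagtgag
GET1: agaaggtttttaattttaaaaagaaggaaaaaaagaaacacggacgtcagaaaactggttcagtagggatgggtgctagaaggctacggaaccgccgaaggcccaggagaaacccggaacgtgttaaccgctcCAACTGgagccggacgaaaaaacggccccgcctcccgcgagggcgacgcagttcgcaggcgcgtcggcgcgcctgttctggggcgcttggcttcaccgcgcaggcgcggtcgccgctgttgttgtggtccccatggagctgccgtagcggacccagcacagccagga
CAMLG: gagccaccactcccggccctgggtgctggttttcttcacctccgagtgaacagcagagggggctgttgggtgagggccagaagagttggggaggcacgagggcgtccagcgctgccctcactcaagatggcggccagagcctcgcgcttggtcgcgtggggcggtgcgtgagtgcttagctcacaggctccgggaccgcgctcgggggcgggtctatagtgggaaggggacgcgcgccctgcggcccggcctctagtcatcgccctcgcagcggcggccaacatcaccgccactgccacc
UBL4A: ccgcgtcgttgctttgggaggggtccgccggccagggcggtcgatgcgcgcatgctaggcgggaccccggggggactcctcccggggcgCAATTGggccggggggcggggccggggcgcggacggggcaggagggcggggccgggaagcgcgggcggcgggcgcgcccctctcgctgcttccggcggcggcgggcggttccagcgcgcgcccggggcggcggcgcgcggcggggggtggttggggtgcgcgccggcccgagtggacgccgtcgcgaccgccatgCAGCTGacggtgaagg
BAX: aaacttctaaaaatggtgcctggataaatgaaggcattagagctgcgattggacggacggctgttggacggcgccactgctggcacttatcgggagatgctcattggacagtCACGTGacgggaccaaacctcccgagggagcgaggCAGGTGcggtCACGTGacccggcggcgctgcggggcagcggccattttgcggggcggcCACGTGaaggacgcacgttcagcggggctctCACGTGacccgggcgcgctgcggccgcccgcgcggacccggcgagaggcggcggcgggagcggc

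The printed GET3 window held 1 CACGTG, at chr19:12737487-12737492, whose centre lay 7.5 bp before the downstream transcript start. It was printed for that CACGTG, and the window of the upstream start held no CANNTG. SGTA had 2 E-boxes of other spellings, and GET1 had 1. Of the members with no peak, CAMLG had none in its window, UBL4A had 2 of other spellings, and 1 of the 2 BAG6 windows, not printed, had 1. E-boxes of other spellings were thus present in windows with and without a peak. BAX had 4 copies of CACGTG and 1 E-box of another spelling. CACGTG was searched on both strands, which read alike, and was present in 2548 of 35116 promoter windows (7.26%), with 4 or more copies in 5 windows (0.0142%). CANNTG, which includes CACGTG, was in 68.7% of windows. Of windows that overlapped a peak found in both lists, 27.2% of 3004 held CACGTG, against 4.73% of 26462 windows with no peak. Windows with a peak of 1 list alone were near the share of all windows. They held it in 7.34% of 845 for list 1 and 8.68% of 4805 for list 2. These shares describe letters in the windows, and some windows of the same gene overlap.

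Peaks were found at 4 of the 7 genes in list 1 (GET4, GET1, GET3 and SGTA), at 3 in list 2 (GET4, GET3 and SGTA), and as overlapping peaks of both lists at the same 3. A gene was counted when a peak's centre lay inside it or within 1 kb of it. Over all protein-coding genes the same count was 25.9% in list 1, 47.0% in list 2 and 16.8% for peaks shared by both lists. With so few members and 1 of them the reason for the choice, the counts were not tested, and the list 2 count is close to its background. All member peaks lay at gene ends, where the background was 14.9% in list 1, 30.1% in list 2 and 11.3% for shared peaks. Peaks beyond GET4 were therefore recorded at SGTA and GET3 in both lists and at GET1 in list 1. The GET1 peak lay at a start shared with a read-through gene. The caller's false discovery rate in list 1 was 58.31% at SGTA and 100% at GET3 and GET1. In list 2 it was 0.61% at SGTA and 1.59% at GET3. At those 3 genes the folds over input ran from 4.17 to 8.89, against 41.04 or more at GET4.

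**Figure D1:**
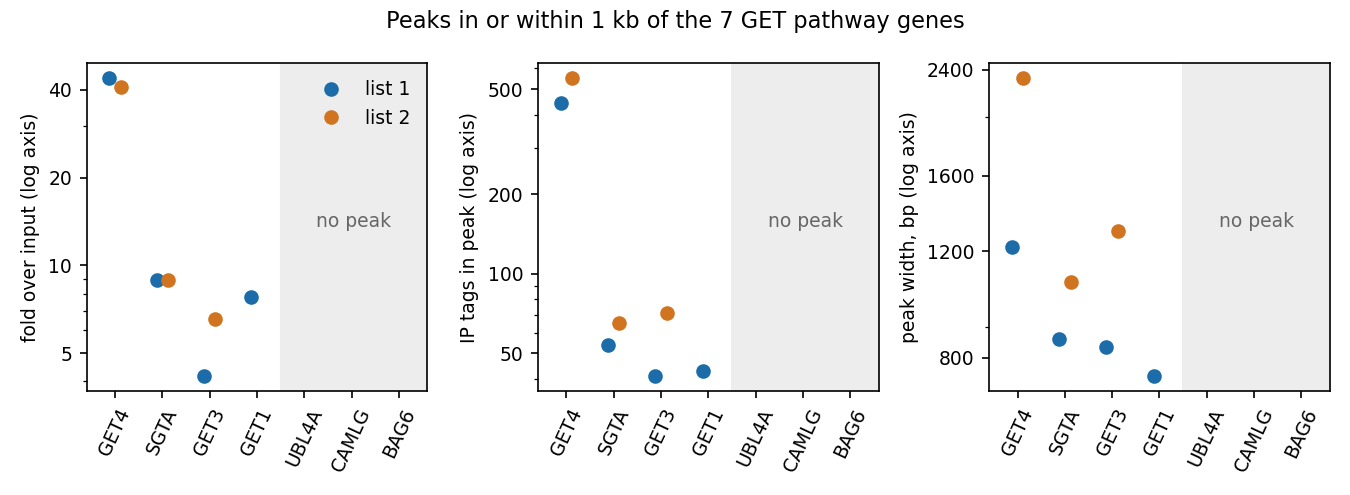
Fold over input, IP tags and peak width (all on log axes) of every peak in or within 1 kb of the 7 genes, with list 1 in blue and list 2 in orange. GET4 stands apart in fold and tags in both lists, GET1 has a list 1 point alone, and UBL4A, CAMLG and BAG6 have no peak.

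The GET4 peak rose 43.82-fold above input by list 1 and 41.04-fold by list 2. This fold is the authors' own and sets the summit's IP tags against what the caller predicted from input and its surroundings. The peak held 442 IP tags in list 1 (95% exact Poisson interval 402 to 485, counting error only) and 550 in list 2 (505 to 598). It spanned chr7:875894-877112 in list 1 (1219 bp) and chr7:875133-877453 in list 2 (2321 bp), so that the whole list 1 peak lay inside the wider list 2 peak and made up 52.5% of it. Per kilobase of peak the tags numbered 363 in list 1 and 237 in list 2. The summits were at 876527 and 876526, 1 bp apart and 27 and 28 bp outside the gene's start coordinate (876554). Such close agreement of summits was found at 41 of 1880 shared gene-end peaks (2.18%), and the median gap was 50 bp. Those peaks were mostly far weaker, with a median of 5.255 for the lower of the 2 folds. The peaks ranked 2 to 5 by that measure had gaps of 15 to 33 bp. A gap of 1 bp was also found at RCBTB1 (20.08-fold and 33.14-fold). The false discovery rate (FDR) that the caller obtained by swapping IP and input was 0 in both lists.

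Among shared gene-end peaks, GET4 ranked first by the lower of the 2 folds, and the next was CLCN7, which encodes a lysosomal chloride-proton exchanger (34.25-fold and 52.26-fold). This order chose the gene and is given as a description. Within its own list the GET4 peak was the third highest of all peaks by fold in list 1 and had rank 10 in list 2, with ranks 13 and 48 by tags. In folds and tags of both lists, as the distance on log2 scales, the shared gene-end peaks closest to that of GET4 were at LAMP1, a lysosomal membrane glycoprotein (distance 0.621), the facing ends of AMDHD2 and ATP6V0C (1.051), BAX (1.054), CLCN7 (1.332) and MCOLN1, a lysosomal cation channel (1.345). The distance rests on 4 values per peak, among them the folds that chose GET4. Because GET4 ranked first, the peaks closest to it were bound to be among the strongest. In the order given they had ranks 4, 3, 5, 2 and 9 by the lower fold. The closeness is thus a description of peak strength that follows from the choice of GET4. The peak centre was nearer to GET4 than to any other gene end: the end of SUN1, the neighbour on its left, was 1569 bp from the list 1 centre and 1359 bp from the list 2 centre. Within 100 kb of GET4, list 1 had no other peak. List 2 had 4 others, of 3.75- to 6.58-fold and none overlapping a list 1 peak.

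**Figure D2:**
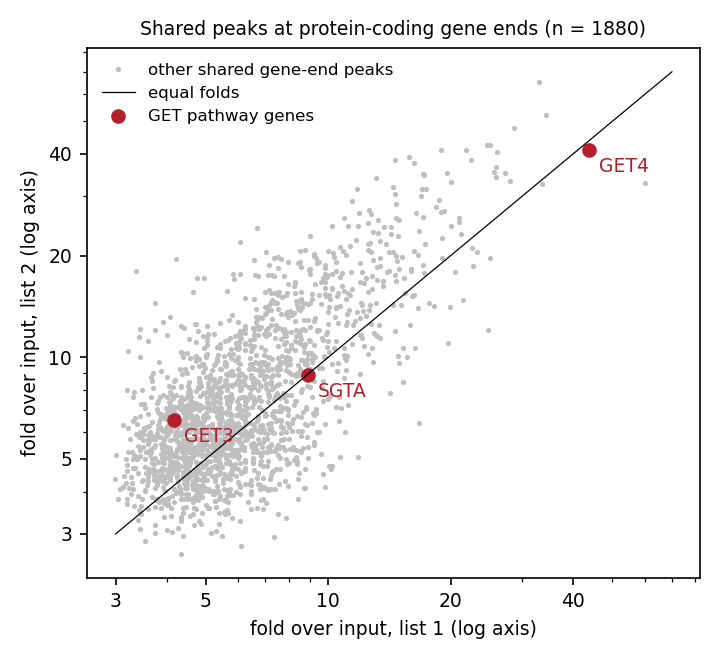
Fold over input in list 1 (x axis, log) and list 2 (y axis, log) of the 1880 shared peaks at protein-coding gene ends, with the line of equal folds. GET4 lies near the line at the upper end, SGTA on the line at 8.89 in each list, and GET3 above the line in the dense lower part.

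SGTA, the first receiver of the cargo, had the highest fold of the pathway after GET4, although GET3 had more tags in list 2. Its fold was 8.89 in each list, with 54 tags (40.6 to 70.5) in list 1 and 65 (50.2 to 82.8) in list 2. The list 1 peak at chr19:2783022-2783881 lay wholly within the list 2 peak at chr19:2782920-2783988 and covered 80.5% of it, and the summits were 42 bp apart. They lay 283 and 241 bp upstream of the SGTA start, which is at the gene's end coordinate because the gene is on the minus strand. The 2 CANNTG of its window were 119.5 and 135.5 bp from the list 1 summit and 77.5 and 93.5 bp from the list 2 summit. By fold the peak was at the 90.5th percentile of list 1 and the 91.4th of list 2. Among the 1880 shared gene-end peaks it was at the 86.2th percentile by the lower fold and the 22.3th by the lower tag count. The FDR was 58.31% in list 1 and 0.61% in list 2, a gap that runs through both lists: 64.3% of list 1 peaks stood at an FDR of 100%, while the highest FDR in list 2 was 25.85%. THOP1, the neighbour on the right, had its nearer end 2051.5 bp from the list 1 centre and 2049 bp from the list 2 centre.

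GET3, the ATPase that carries the cargo, had a peak in both lists, low in list 1 and above most peaks in list 2. Its fold was 4.17 in list 1, at the 10.4th percentile of that list, and 6.53 in list 2, at the 69.9th percentile. Among the 1880 shared gene-end peaks it stood lower, at the 21.9th percentile by the lower fold. By the lower tag count it was at the 8.48th, and the median list 2 fold of those peaks was 6.605. The tags numbered 41 (29.4 to 55.6) and 71 (55.5 to 89.6). The FDR was 100% in list 1 and 1.59% in list 2. The peaks, at chr19:12736775-12737609 and chr19:12736634-12737931, both contained the CACGTG shown in capitals in the GET3 sequence. Its centre was 6.5 bp from the list 2 summit and 71.5 bp from the list 1 summit, and the summits were 78 bp apart. Both peaks covered the upstream transcript start as well (position 12737106), whose window held no CANNTG. The GET3 neighbourhood was rich in peaks, with 5 others in list 1 and 9 others in list 2 within 100 kb. Among them were shared peaks centred 14372.5 bp (12.27-fold in list 1, 18.93-fold in list 2) and 55550 bp (12.61-fold and 13.81-fold) to the left, by their list 1 centres.

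GET1, a subunit of the membrane receptor, had a peak in list 1 alone. It lay at chr21:39379930-39380675 with 7.81-fold and 43 tags (31.1 to 57.9), and its summit was 17 bp upstream of the first transcript start. The FDR of this peak was 100%, and the centre of the nearest list 2 peak was 31185 bp away, 53 bp from the end of HMGN1. The read-through gene GET1-SH3BGR begins at the same position, so the peak cannot be assigned to either gene. It was the one peak among those of the 4 genes that had no overlapping partner in the other list.

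**Figure D3:**
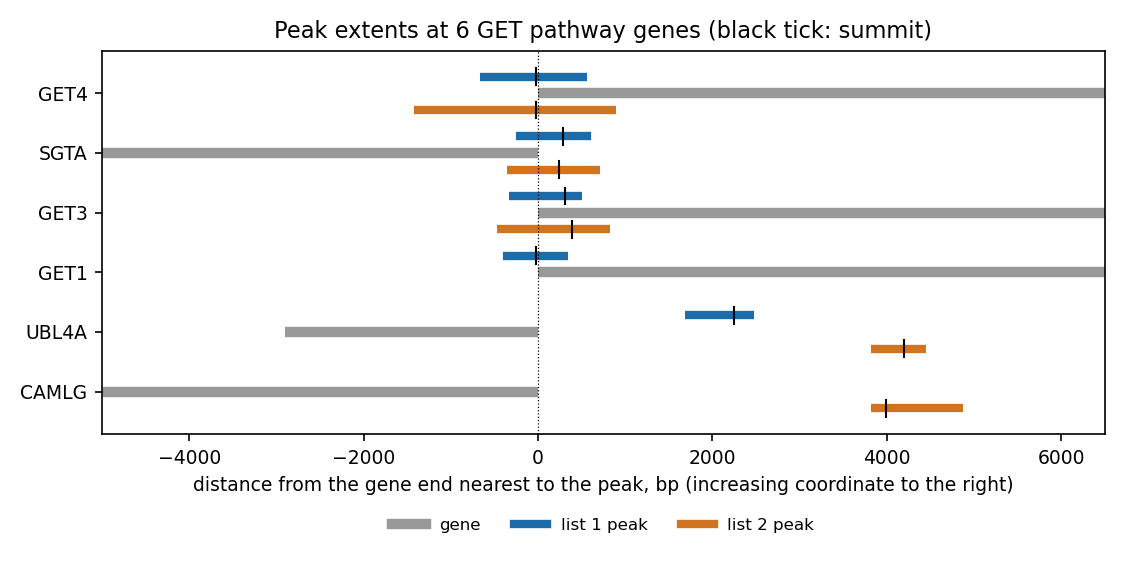
Extents of list 1 peaks (blue) and list 2 peaks (orange) along 6 of the genes (grey), in bp from the gene end nearest to the peak, with summits as black ticks. Peaks at GET4, SGTA, GET3 and GET1 span or touch the gene end, while those near UBL4A and CAMLG lie about 2 to 5 kb outside, and the shared pair left of UBL4A is beyond the plotted range.

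CAMLG, the other subunit of the receptor, had no peak within 1 kb in either list. In list 1 the nearest centre was 90027 bp off, next to SEC24A (139 bp), where both lists had overlapping peaks (5.13-fold in list 1, 7.72-fold in list 2). In list 2 a peak of 5.47-fold (57 tags) lay 4347 bp beyond the CAMLG end coordinate, on the side of DDX46. UBL4A, a ubiquitin-like protein of the transfer complex, also had none within 1 kb. The nearest centres were 2081.5 bp off in list 1 (4.17-fold, 42 tags, FDR 100%) and 4137 bp in list 2 (6.67-fold, 30 tags, FDR 20.2%), and these 2 peaks did not overlap each other. On its other side a weak pair of overlapping peaks lay 4615.5 and 4524.5 bp from the gene (4.68-fold and 3.59-fold). The 1 kb limit separated the members by a wide margin: the farthest centre inside it was 261 bp from its gene (GET4, list 2) and the nearest one outside was 2081.5 bp away.

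BAG6, the scaffold of the transfer complex, differed from the other members without a peak in how far away the nearest peak was. The nearest centre was 2088452.5 bp from the gene in list 1 and 1937487.5 bp in list 2, distances reached or passed by 0.636% and 0.606% of protein-coding genes. The stretch around BAG6 with no peak centre was 5.25 Mb long in list 1 and 5.1 Mb in list 2, and it held 175 and 173 protein-coding genes. In each list that was the largest number of genes in any stretch between neighbouring peaks. The next largest, on chromosome 17, held 66 in list 1 and 62 in list 2. The median spacing of peaks on chromosome 6 was 152 kb in list 1 and 64.8 kb in list 2. This stretch includes the major histocompatibility complex. The file headers label the aligned reads as unique, and 7 peaks of list 1 and 12 of list 2 stood on sequences outside the assembled chromosomes. Whether reads could be placed uniquely around BAG6 was not tested, so the missing peak at BAG6 cannot be told apart from missing reads.

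**Figure D4:**
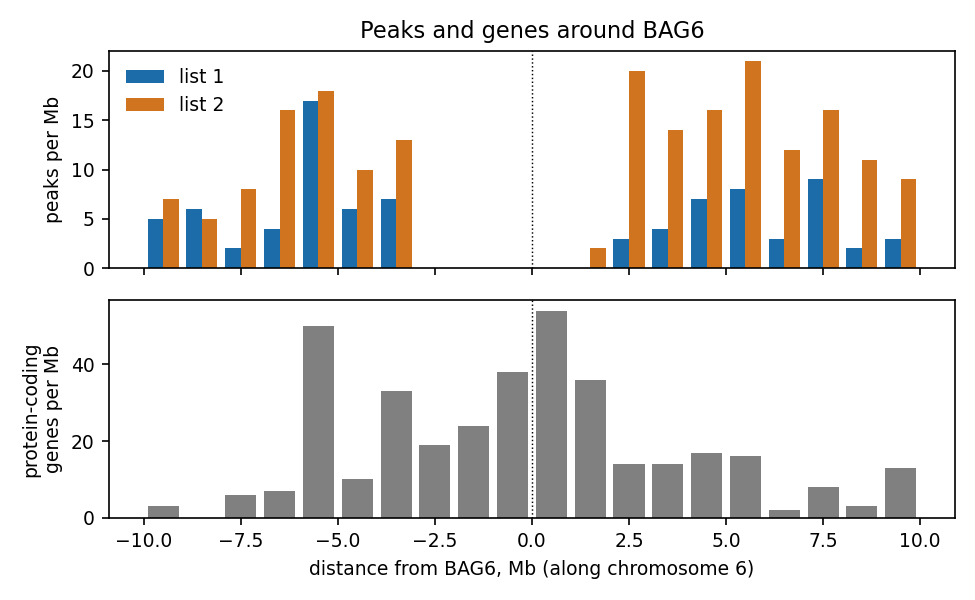
Peaks per Mb in list 1 (blue) and list 2 (orange), above, and protein-coding genes per Mb (grey), below, in 20 bins of 1 Mb around BAG6 on chromosome 6. No bar appears in either list from 3 Mb to the left of BAG6 to 1 Mb to its right, although these bins hold 19 to 54 genes each.

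Genes that work beside the GET route were taken from 7 further lists of 105 genes: accessory factors, the other insertion machines, and known tail-anchored proteins of several membranes. Of the 105, 38 had a peak in list 1 (36.2%, against 25.9% of all protein-coding genes), 63 in list 2 (60.0%, against 47.0%) and 27 a shared peak (25.7%, against 16.8%). When each list had to reach 8-fold, 4 of the 105 kept a shared peak, as did 2 of the 7 GET genes (GET4 and SGTA) and 3.28% of all protein-coding genes. When each list had to have an FDR no higher than 5%, 2 of the 105 (BAX and STX4), 1 of the 7 (GET4) and 1.3% of all protein-coding genes did. GET4 was chosen for its fold, so its pass at 8-fold was fixed by the choice. Its pass at the FDR limit describes the same chosen peak. These counts were not tested.

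None of the 3 accessory factors had a shared peak, against 16.8% of all protein-coding genes. SGTB, a paralogue of SGTA, had a list 1 peak of 4.04-fold (83 tags, FDR 94.06%) that covered the CACGTG of its promoter window. The centre of this peak was inside SGTB, 841.5 bp from that gene's end coordinate and 33.5 bp from the end of NLN. The peak covered the SGTB transcript start of that window (position 65722109). It cannot be assigned to either gene, and the nearest list 2 centre was 8224 bp away. RNF126, the ubiquitin ligase that works with BAG6, had a list 2 peak of 8.15-fold (34 tags, FDR 17.02%) 84 bp outside the gene. UBL4B, a paralogue of UBL4A, had none.

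The other insertion machines include the Sec61 channel, the EMC insertase and the signal recognition particle, which brings nascent proteins to the membrane. Shared peaks were found at 5 of 11 genes of the Sec61 translocon list and at 3 of 10 EMC subunits. They were found at 2 of 8 genes of the signal recognition particle and its receptor. The SND and multipass translocon list had 2 of 10, and that of peroxisomal insertion and extraction 1 of 4. Of all protein-coding genes, 16.8% had a shared peak. With 4 to 11 genes per list, these counts were not tested against that share. SSR3, a subunit of the translocon-associated complex, led the genes of these lists with 10-fold in list 1 and 12.53-fold in list 2. Next by the lower fold was SEC61A2, a channel subunit (8.01-fold and 9.92-fold). SSR1, another subunit of that complex, had 6.58-fold and 19.37-fold, and SEC62 9.83-fold and 5.88-fold, at a site inside the gene. SRPRA, a subunit of the signal recognition particle receptor, had 7.32-fold and 6.72-fold, and SRP14 had 4.38-fold and 5-fold. The SRPRA peak also lay within 1 kb of an end of FOXRED1. EMC2 led its complex with 6.56-fold and 14.86-fold, followed by EMC1 (6.76-fold and 5.59-fold) and EMC6 (6.25-fold and 4.9-fold). CCDC47 had 5.72-fold and 6.52-fold, TMEM208 4.3-fold and 5.9-fold, and ATAD1, the ATPase that pulls misplaced tail-anchored proteins from mitochondria, 4.53-fold and 4.81-fold. All of these were below GET4, and SSR3 alone was above SGTA by the lower fold. Among these named genes the list 1 FDR ran from 7.16% (SSR3) to 100% (SEC61A2, SRP14, TMEM208 and ATAD1). In list 2 it ran from 0 (SSR1) to 16.06% (SEC62). The SEC61A2 peak held 35 tags in list 1 and 63 in list 2.

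Of 59 genes for tail-anchored proteins, among them proteins of mitochondria, 14 had a shared peak (23.7%, against 16.8% of all protein-coding genes). The BAX peak had 33.56-fold and 272 tags in list 1 and 32.5-fold and 363 tags in list 2. It spanned chr19:48954372-48955630 and chr19:48954090-48955814, and both contained all 4 CACGTG of the printed window. The copy nearest the list 1 summit, at chr19:48954830-48954835, was centred 20.5 bp from it, and the copy nearest the list 2 summit, at chr19:48954782-48954787, 3.5 bp from it. STX4, a plasma membrane SNARE, followed with 12.5-fold and 24.98-fold, and its window held 1 CACGTG, 16.5 bp from the list 1 summit and 51.5 bp from the list 2 summit. STX6, a SNARE of the trans-Golgi network, had 7.93-fold and 9.91-fold, and HMOX1, the inducible haem oxygenase, had 7.37-fold and 14.51-fold. The FDR at STX6 was 24.13% in list 1 and 0.11% in list 2, and at HMOX1 49.06% and 0.31%. Promoter windows with CACGTG belonged to 14 of the 94 listed genes that have a window (14.9%), against 10.9% of the 15843 protein-coding genes with one. At 6 of the 14 (42.9%) the letters lay inside a peak of both lists, against 38.0% of the 1727 protein-coding genes with CACGTG.

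**Figure D5:**
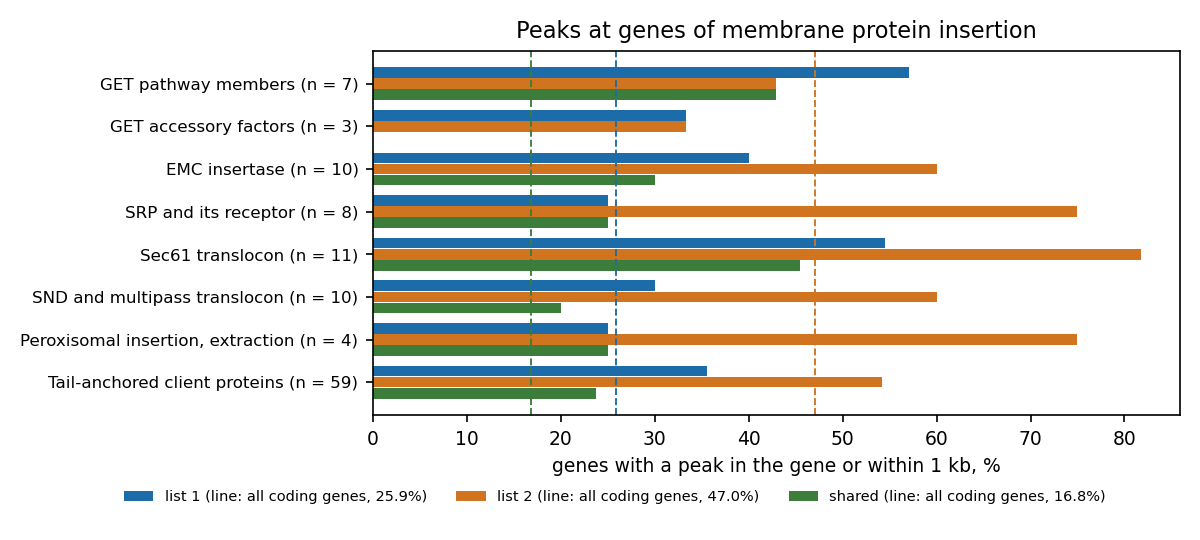
Share of genes with a peak in the gene or within 1 kb in list 1 (blue), list 2 (orange) and shared (green) for the 7 GET genes and the 7 further lists, with dashed lines at the shares of all protein-coding genes (25.9%, 47.0% and 16.8%). The lists hold 3 to 59 genes, so a single gene moves a bar by up to 33.3 points.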

How the data were processed

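Peak lists from 2 IP and 2 input libraries were analysed. Per the file headers, the authors called peaks with MACS 1.4.2 in each IP against the input of the same number at a p cutoff of 1e-05, keeping at most 1 tag per position, without pooling replicates. Bowtie2, deepTools, HOMER and GRCh38 appear per the submitters' processing notes without a stated role. The deposited values per peak are a count of IP tags not scaled to depth, a fold ratio of tags at the summit over expected tags, a score of minus 10 times log10 of the caller's p, and an FDR in percent. All are the authors' values and were used to describe and rank peaks.

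Genes came from the RefSeq table of GRCh38.p14 (20037 protein-coding genes, without strand), and strand and starts from the RefSeq promoter windows. A gene held a peak when the peak's centre was in it or within 1000 bp. A peak was shared when peaks of both lists met this rule and overlapped by at least 1 bp. Python 3.11.15, numpy 2.4.6, pandas 2.3.3 and matplotlib 3.10.9 were used, and peak assignment was tested on simulated data. The 7 genes, the further lists and the rules were chosen with earlier results of these data known. Named genes were all members and accessory factors, and up to 4 shared genes per further list by the lower fold. The 5 peaks closest to that of GET4 in folds and tags were also named. Alternatives were stricter thresholds, other distances, overlap rules and rankings, and each list alone. No test was made between lists.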

Additional observations from a re-analysis of the deposited data

How the results depend on the processing

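Each member count is given with the share of all protein-coding genes under the same setting. GET4 was chosen for its fold, so it was bound to remain at a fold of at least 8. The count of 4 members with a list 1 peak became 2 (GET4 and SGTA) at a fold of at least 8 (5.33%) or a p of at most 1e-10 (9.36%), and 1 (GET4) at an FDR of at most 5% (1.33%). The count of 3 in list 2 became 5 within 5 kb of a gene (52.1%), which added CAMLG and UBL4A. The count of 3 shared became 1 at an FDR of at most 5% (1.3%), and was 3 without replicate 1 (47.0%) and 4 without replicate 2 (25.9%), when each list was read alone. Among the 105 further genes, the 27 with a shared peak became 4 at a fold of at least 8 (3.28%), 2 at an FDR of at most 5% (1.3%) and 12 at a p of at most 1e-10 (6.25%), and each list alone gave 38 (25.9%) to 63 (47.0%). GET4 ranked first by the lower fold or score, second (rank 2) by the lower tag count, and 2 to 8 among gene-end peaks of a single list. Of 42 alternatives, 30 left a count or rank within 1.5 times its value. This limit lets a count of 3 members fall to 2 (GET4 and SGTA), with GET3 lost. That occurred at a fold of at least 8 in list 2 (9.67%) and for shared peaks (3.28%). It also occurred for shared peaks at a p of at most 1e-10 (6.25%). GET4 was in every member count, so part of this tally followed from its choice. Counting each peak for its nearest gene end alone, chosen after the data were seen, gave GET1's list 1 peak to the read-through gene. The ends of GET1 and of the read-through gene were both 23.5 bp from the peak centre, so this assignment only broke a tie. The cause of each change was not tested, beyond the fewer peaks that stricter thresholds leave. No paired analysis was possible because the peaks of a list come from an IP and its same-numbered input together, with no separate input count. With 2 lists, intervals cover counting error only.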
